A study of Mus musculus with 3 samples.

Results

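Transcripts of 8 regulators of messenger RNA decay were detected in each of 3 libraries of mouse spleen T cells after 10 h with LZ-8. Levels differed among the 3 Zfp36 genes and within the Zc3h12 and Rc3h pairs. For some of these pairs the size of the difference depends on the gene length used. The genes were taken by their symbols, Zfp36, Zfp36l1, Zfp36l2, Zc3h12a, Zc3h12d, Rc3h1, Rc3h2 and Elavl1, and all 8 of 8 were found among the 44788 rows of the count table. Per kilobase of exon, Zfp36l1 was the highest at 97.1 ± 7.24 CPM, followed by Zc3h12d at 62.4 ± 6.79 CPM and Zfp36l2 at 54.9 ± 1.18 CPM (CPM, the usual depth-scaled unit of counts, here on TMM-scaled library sizes, mean ± SD, n = 3 libraries here and below). The lowest was Rc3h2 at 3.55 ± 0.468 CPM per kilobase, or 7.79 ± 1.03 with its longest transcript as the length, which was also the lowest of the 8. Zfp36, the founding member of its family, was at 24.4 ± 4.55 CPM per kilobase and was the most variable of the 8 between libraries.

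These genes act on the 3′ untranslated regions (3′ UTRs) of short-lived messenger RNAs, among them those of many cytokines. ZFP36 (tristetraprolin), ZFP36L1 and ZFP36L2 bind AU-rich elements through a pair of zinc fingers and recruit the CCR4-NOT complex, which shortens the poly(A) tail. Regnase-1, encoded by Zc3h12a, is an endonuclease that cuts messenger RNAs at stem-loops, and Zc3h12d encodes its relative Regnase-4. Roquin-1 and Roquin-2, encoded by Rc3h1 and Rc3h2, bind similar stem-loops with small loops of 3 bases and also recruit CCR4-NOT. HuR, encoded by Elavl1, binds AU-rich and U-rich RNA and is best known for stabilizing its targets. In T cells these proteins are known for limiting or prolonging the output of cytokine and costimulatory genes, and the paracaspase MALT1 cleaves Regnase-1 and the Roquins after antigen receptor signalling.

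The samples were 3 RNA-sequencing libraries of T lymphocytes from spleens of female BALB/c mice aged 6 to 8 weeks, isolated with beads against CD90.2 and cultured in medium with 2% serum. All were treated with LZ-8, a protein of the medicinal fungus Ganoderma lucidum, for 10 h, and no untreated library was analysed here, so the values are levels in treated cells and not an effect of treatment. Summed over genes, replicates 1, 2 and 3 had 13239482, 15007652 and 15683820 counts, and a detection floor of 3 counts equalled 0.236, 0.198 and 0.186 CPM. It is not stated if each replicate had its own animal or culture, so SDs and p-values concern the spread between these libraries, which may be technical.

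The letters that the proteins are known to read can be found in the annotated 3′ UTRs of the regulators themselves and of messenger RNAs reported as their targets. The AU-rich nonamer TTATTTATT, the extended core of a ZFP36 element written as DNA, stood in the 3′ UTR of 6 of 8 regulators, against 6.91% of 20657 coding genes and 11.0% of the 10332 coding genes with a 3′ UTR within the length range of the 8. Of 27 reported targets, 10 held it. One stretch of 30 bases is shown per gene for the regulators that hold it and for 3 cytokine genes, chosen after the search, with it, with the nonamers in capitals. The sites lie at chr7:28376950-28376979 (minus strand, Zfp36), chr12:80108166-80108195 (minus, Zfp36l1), chr17:84184913-84184942 (minus, Zfp36l2), chr1:160970043-160970072 (plus, Rc3h1), chr2:37373286-37373315 (minus, Rc3h2) and chr8:4285781-4285810 (minus, Elavl1) of GRCm38. Those of the cytokines lie at chr17:35199679-35199708 (minus, Tnf), chr11:54247322-54247351 (minus, Csf2) and chr3:37120897-37120926 (minus, Il2).
Zfp36: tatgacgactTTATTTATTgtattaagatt
Zfp36l1: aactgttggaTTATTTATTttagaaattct
Zfp36l2: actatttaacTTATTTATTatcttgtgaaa
Rc3h1: actttactcaTTATTTATTgagatgaggag
Rc3h2: caaagacattTTATTTATTttactctgtaa
Elavl1: aaaaTTATTTATTTATTTATTTATTtttat
Tnf: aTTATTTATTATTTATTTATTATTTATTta
Csf2: atatTTATTTATTTATTTATTTATTtttgc
Il2: ttatctgaaaTTATTTATTatattgaattg

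The 3 ZFP36 genes and the 2 Roquin genes each held a lone nonamer, whereas Elavl1 held 8, of which 4 overlap in the stretch shown. Tnf held 5, of which 4 are in its stretch, and Csf2 held 4. The shorter core TATTTAT, which each nonamer contains, was found 3 times each in Zfp36, Zfp36l1, Zfp36l2 and Rc3h2, 2 times in Rc3h1 and 8 times in Elavl1, and no match was found in the 3′ UTRs of Zc3h12a and Zc3h12d. It was present in 75.0% of the regulators, 77.8% of the reported targets, 25.4% of all coding 3′ UTRs and 40.8% of those within the length range of the 8. That range, 774 to 7181 bases, is too wide to match the length of each gene. Per kilobase of 3′ UTR, Rc3h1 held 0.279 and Rc3h2 0.581 of these cores, Elavl1 1.90 and the ZFP36 genes 1.63 to 3.88. Over all coding 3′ UTRs it was 0.313. The targets had a median 3′ UTR of 690 bases, below that range. Some may be known as targets through such letters, so their shares, above and below, are no test. Only the transcript strand was searched, overlapping matches were counted, and 1 transcript per gene was used.

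The other element, a stem-loop, was searched as a perfect stem of 6 or more pairs around a loop of 3 bases in the order pyrimidine, purine, pyrimidine. It occurred in the 3′ UTRs of 3 of 8 regulators (Zc3h12a, Rc3h1 and Rc3h2), in 8 of 27 reported targets, in 7.41% of all coding genes and in 12.1% of those within the length range of the 8. In the hairpins below the loop is in capitals. Some hairpins of 6 genes reported as Roquin or Regnase-1 targets, picked after the search, are shown beside some of those of the regulators. They lie at chr4:125119069-125119083 and chr4:125118887-125118901 (minus, Zc3h12a), chr1:160971660-160971674 (plus, Rc3h1), chr2:37373809-37373823 (minus, Rc3h2), chr17:35199585-35199599 (minus, Tnf), chr7:30428402-30428416 and chr7:30428430-30428444 (plus, Nfkbid), chr16:55812613-55812629 (minus, Nfkbiz), chr4:156016541-156016555 (plus, Tnfrsf4), chr11:23742028-23742042 (minus, Rel) and chr1:60915765-60915779 (plus, Ctla4).
Zc3h12a, upstream: gatacaCATtgtatc
Zc3h12a, downstream: aggcacCATgtgcct
Rc3h1: aacttcTGTgaagtt
Rc3h2: aacttcTGTgaagtt
Tnf: gttttcTGTgaaaac
Nfkbid, upstream: gatttcTGTgaaatc
Nfkbid, downstream: tgtttcTGTgaaaca
Nfkbiz: ttgtttcTATgaaacaa
Tnfrsf4: gtatgcTATgcatac
Rel: aatggcTATgccatt
Ctla4: attttcCATgaaaat

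The Rc3h1 and Rc3h2 hairpins shown are the same 15 letters, although the genes lie on different chromosomes. Zc3h12a held 3 hairpins in a 3′ UTR of 856 bases and no AU-rich heptamer, and Zfp36, Zfp36l1, Zfp36l2 and Elavl1 held the AU-rich letters and no such hairpin. Of the 4 hairpins counted in Rc3h1, 2 overlap in a repeat-like run of only T and A. Tnf and Nfkbiz held 2 hairpins each, of which 1 each is shown, and the other of Tnf has the loop CAC. Zc3h12d held neither kind of letters in its 2327 bases. A match describes letters only, and neither folding nor binding was measured.

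**Figure D1:**
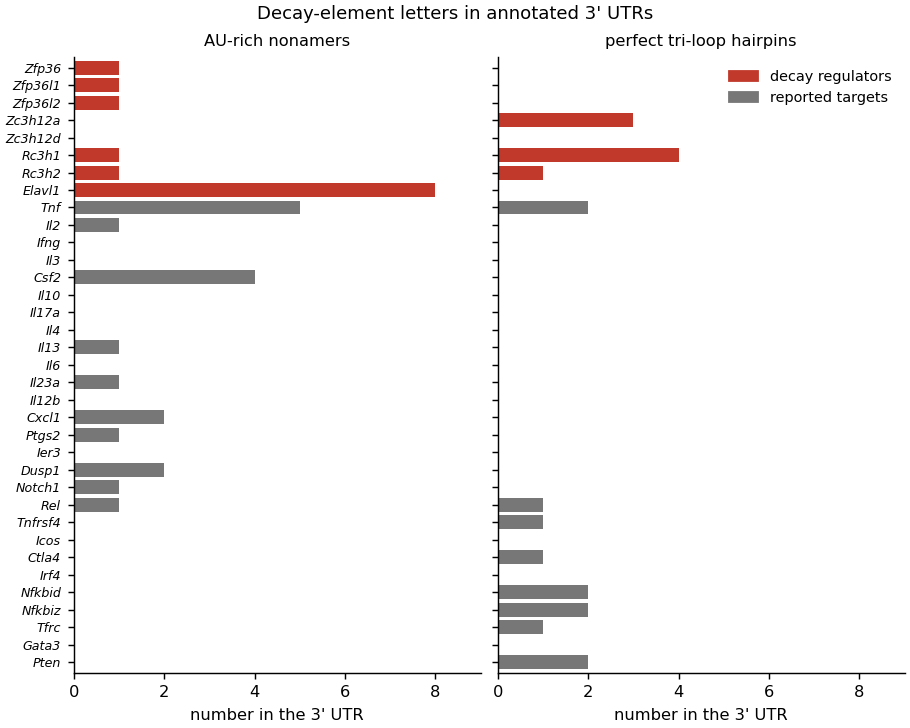
Number of AU-rich nonamers (left) and of perfect tri-loop hairpins (right) in the annotated 3′ UTR of the 8 decay regulators (red) and of 27 reported target genes (grey). Elavl1 has the most nonamers with 8, Tnf has 5, and hairpins stand in Zc3h12a, Rc3h1 and Rc3h2 among the regulators.

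In the ZFP36 family, Zfp36l1 was the most abundant member in every library. Zfp36l1 (chr12:80107754-80113013, minus strand of GRCm38) had 3608, 4773 and 4411 counts, or 283, 315 and 273 CPM, in replicates 1, 2 and 3. Zfp36l2 (chr17:84183931-84187947, minus) had 2452, 3008 and 3072 counts, or 193, 198 and 190.3 CPM. Zfp36 (chr7:28376784-28380253, minus) had 1252, 1338 and 1088 counts, or 98.3, 88.2 and 67.4 CPM, so the 3 genes did not overlap in any pair of libraries. Per kilobase of exon, Zfp36l1 was 4.02-fold higher than Zfp36, with a log2 ratio of 2.01 ± 0.25 within libraries, and Zfp36l2 was 2.28-fold higher than Zfp36, with a log2 ratio of 1.19 ± 0.27. Zfp36l2 was 1.77-fold lower than Zfp36l1, with a log2 ratio of -0.82 ± 0.08. These ratios kept their sign in each library and were larger than their SD, although a two-sided exact sign-flip test of 3 values cannot give a p below 0.25. Zfp36l3, a mouse relative, had 2, 2 and 0 counts and lay under the floor in every library.

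The proteins of this family differ more outside their zinc fingers than within them. Translated from the annotated coding sequences, ZFP36, ZFP36L1 and ZFP36L2 have 319, 338 and 484 residues, and each holds 2 matches to a CCCH finger pattern (cysteines spaced by 7 to 9 and by 4 to 6 residues, then 3 residues to a histidine). Over the 58 residues from the start of the first finger to the end of the second, ZFP36L2 and ZFP36L1 were 93.1% identical, ZFP36L2 and ZFP36 69.0%, and ZFP36L1 and ZFP36 67.2%. Over whole proteins the identities were 64.7%, 45.6% and 41.2% of aligned residues in the same order. 

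The Regnase genes stood far apart. Zc3h12d (chr10:7832470-7870396, plus) had 3568, 3941 and 3638 counts, or 280.3, 259.9 and 225 CPM. Zc3h12a (chr4:125118423-125127840, minus) had 573, 762 and 880 counts, or 45.0, 50.3 and 54.5 CPM, the lowest of the 8 by CPM. Zc3h12a was 3.60-fold lower than Zc3h12d per kilobase of exon, with a log2 ratio of -1.85 ± 0.30 and values of -2.13, -1.86 and -1.54 in replicates 1, 2 and 3. The gap had the same direction in each library and differed in size, with Zc3h12d highest in replicate 1 and Zc3h12a in replicate 3. Their proteins, of 596 and 533 residues for Zc3h12a and Zc3h12d, were 49.7% identical over aligned residues. The other relatives had low counts, with 6, 22 and 26 counts for Zc3h12b and 18, 39 and 31 for Zc3h12c.

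Both Roquin genes were expressed, Rc3h1 above Rc3h2. Rc3h1 (chr1:160906418-160974978, plus) had 1520, 2065 and 2148 counts, or 119, 136 and 133 CPM, and Rc3h2 (chr2:37370069-37422903, minus) had 755, 1111 and 1237 counts, or 59.3, 73.3 and 76.6 CPM. Both were lowest in replicate 1, and they did not overlap. Per kilobase of exon, Rc3h1 was 3.24-fold higher than Rc3h2, with a log2 ratio of 1.70 ± 0.11. This size depends on the length used, since the exons of Rc3h2 span 19624 bases in union and 8948 bases in its longest transcript, and with the longest transcripts the log2 ratio was 0.60. The proteins, of 1130 and 1187 residues, were 58.2% identical over aligned residues, and each held 1 match to the CCCH pattern. Nufip2, a cofactor of Roquin, had 1124, 1559 and 1730 counts and was at 99.4 ± 9.88 CPM.

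Elavl1 was the one abundant member of the Hu family. Elavl1 (chr8:4285382-4325413, minus) had 2268, 2464 and 2470 counts, or 178, 162 and 153 CPM. Its neuronal relatives Elavl2 and Elavl4 had 0 counts in all libraries, which allows up to 0.236, 0.198 and 0.186 CPM at the floor of 3 counts per library, and Elavl3 had 3, 5 and 4 counts. The counts of Elavl1 lay far above those of its relatives in every library.

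Ranked by level per kilobase of exon, the order was Zfp36l1, Zc3h12d, Zfp36l2, Zfp36, Zc3h12a, Elavl1, Rc3h1 and Rc3h2. The neighbours Zc3h12a and Elavl1, at 17.3 ± 1.65 and 15.9 ± 1.23 CPM per kilobase, did not differ beyond their spread, with a log2 ratio of 0.12 ± 0.25 and opposite signs between libraries. The other 6 neighbouring pairs kept their order in all 3 libraries with a mean above the SD. The closest of these was Zc3h12d over Zfp36l2, with log2 ratios of 0.33, 0.18 and 0.03 in replicates 1, 2 and 3. With the longest transcript as the length, Elavl1 at 28.7 ± 2.21 CPM per kilobase moved above Zc3h12a at 18.1 ± 1.73. The other 6 genes held their ranks by mean, although Zfp36, then at 30.3 ± 5.66, and Elavl1 overlapped within their SDs. By their level per kilobase, Zfp36l1, Zc3h12d and Zfp36l2 exceeded 97.0%, 94.7% and 94.0% of the 18998 genes with a count and a known length, Zfp36 exceeded 85.9%, Zc3h12a 80.8%, Elavl1 79.5%, Rc3h1 73.9% and Rc3h2 54.4%. Among the 12329 of these genes at 1 CPM or more, Zfp36l1, Zc3h12d and Zfp36l2 exceeded 95.3%, 91.9% and 90.7%, Zfp36 78.3%, Zc3h12a 70.5%, Elavl1 68.4%, Rc3h1 59.9% and Rc3h2 30.7%. These shares use the union of exons as the length of every gene. They were not computed with the longest transcripts, which put Rc3h2 at 7.79 in place of 3.55 CPM per kilobase.

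**Figure D2:**
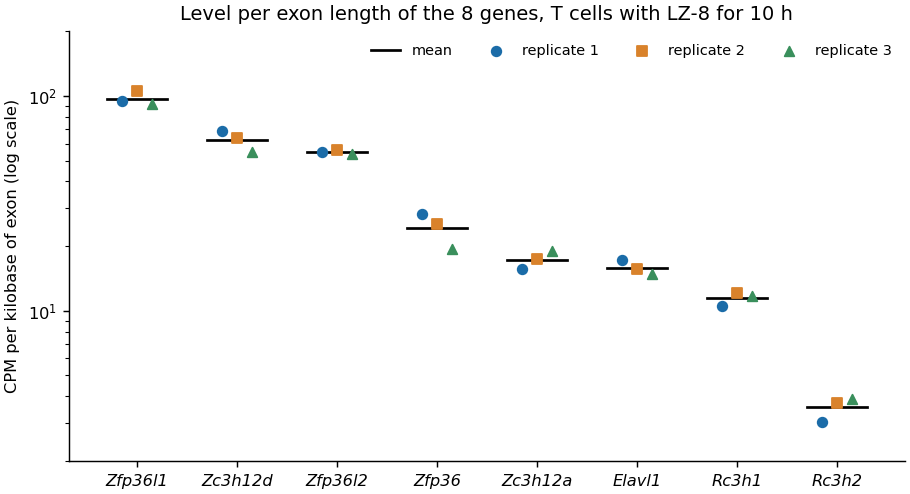
CPM per kilobase of exon (log scale) of the 8 decay regulators, each point 1 library and each bar the mean of 3. Zfp36l1 is highest at 97.1 and Rc3h2 lowest at 3.55, and the points of Zc3h12a and Elavl1 overlap in range.

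Most of the 8 genes differed between libraries by more than counting error. Raw counts of each gene were set against the scaled library sizes in a chi-square test which, after Benjamini-Hochberg adjustment over all genes tested, called 7 of the 8. Over the 15392 genes tested it called 42.8%, and over the 4045 genes with a mean CPM within the range of the 8 it called 67.9%, so a high share is usual at this depth. The p-values weigh the spread between these libraries against counting error alone and take reads as independent molecules, so they compare the libraries and no conditions. Over 13676 genes the common biological coefficient of variation between the 3 libraries, estimated with edgeR as a fraction of the mean, was 0.154. With a gap of 25% or more between the highest and the lowest library required as well, a limit set after the folds were seen, 2 of 8 were called, Zfp36 and Rc3h2, against 27.2% of all genes tested, and Zc3h12d, at 1.24-fold, lay just outside the limit. The test says nothing of LZ-8.

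The direction of these differences varied among the genes. The p-values cover counting error only and come from all 3 libraries together, unless a library was left out. Zfp36 was 1.46-fold higher in replicate 1 than in replicate 3 (chi-square test, adjusted p = 1.42e-18), and Zc3h12d 1.24-fold (adjusted p = 7.82e-19) and Elavl1 1.16-fold (adjusted p = 5.51e-06) in the same direction. Rc3h2 and Zc3h12a went the other way, 1.29-fold and 1.21-fold higher in replicate 3 than in replicate 1 (chi-square test, adjusted p = 4.71e-07 and 0.00541). Rc3h1 was lowest in replicate 1 and highest in replicate 2, by 1.14-fold (adjusted p = 0.000963), and Zfp36l1 was highest in replicate 2 and lowest in replicate 3, by 1.15-fold (adjusted p = 1.60e-10). Zfp36l2 did not pass, with a fold of 1.04 and an adjusted p of 0.364, and its coefficient of variation of 2.15% was near the 1.88% that counting alone gives. That of Zfp36 was 18.6%, against 2.87% from counting, and the median over the 8 was 8.63%, against 7.49% over the genes of the same CPM range. Without replicate 1, the calls of Zfp36, Zfp36l1 and Zc3h12d were kept (3 of 8), and those of Zc3h12a, Rc3h1, Rc3h2 and Elavl1 were lost (adjusted p = 0.244, 0.651, 0.486 and 0.111 by the chi-square test), with 3836 genes called in all. Without replicate 2 the call of Zfp36l1 was lost (adjusted p = 0.189), and without replicate 3 that of Zc3h12a (adjusted p = 0.144), with 3555 genes called in all.

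**Figure D3:**
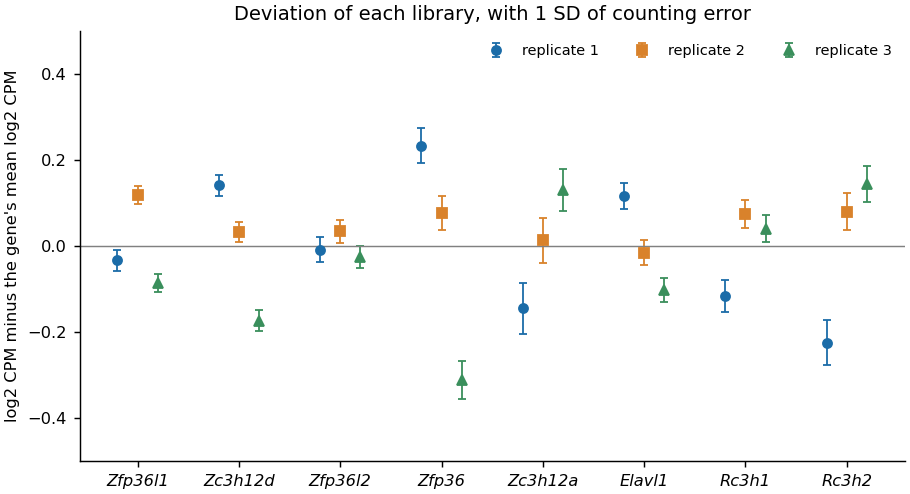
Deviation of each library from the gene's mean log2 CPM for the 8 regulators, with bars of 1 SD of counting error. Replicate 1 is highest for Zfp36, Zc3h12d and Elavl1 and lowest for Zc3h12a, Rc3h1 and Rc3h2, and the 3 libraries lie together for Zfp36l2.

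Measures of RNA composition moved with the libraries. The ribosomal row Rn18s-rs5 took 5.83%, 2.37% and 0.992% of counts in replicates 1, 2 and 3, and Lars2 took 0.705%, 0.416% and 0.235%, the same order as that of Zfp36, Zc3h12d and Elavl1. When 8633 coding genes were cut into 10 equal bins, those in the exon-length bin of Zfp36 had a median log2 difference, replicate 1 over replicate 3, of -0.02 and those in its GC bin of 0.04, beside 0.55 for Zfp36. For Rc3h2 the medians were -0.18 by length and -0.27 by GC content, beside -0.37 for the gene. For Zc3h12d they were -0.05 and -0.01, beside 0.31, for Elavl1 -0.18 and -0.15, beside 0.22, and for Zc3h12a 0.01 and 0.05, beside -0.28. For Rc3h1 the medians of -0.18 by length and -0.19 by GC content were as low as the -0.16 of the gene itself. For Zfp36l1 they were 0.01 and -0.07, beside 0.05, and for Zfp36l2 -0.02 and 0.04, beside 0.02. The part of RNA composition in these differences was not tested.

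The 10 T cell markers examined, among them Cd3e, Lck and Zap70, all exceeded 100 CPM. Markers of other cells were scarce and summed to 0.401% to 0.418% of the T cell marker sum for 7 B cell genes, 0.486% to 0.594% for 10 macrophage and monocyte genes and 0.00327% to 0.0290% for 8 neutrophil genes, with Csf1r, C1qa, C1qb and C1qc at 0 counts. The macrophage and monocyte list was uneven, with Mpeg1, Ly6c2 and Cd68 at means of 9.20, 6.33 and 5.57 CPM. The 6 dendritic cell genes summed to 0.258% to 0.329%, 5 NK cell genes to 0.256% to 0.317%, 6 erythroid genes to 0.0491% to 0.0836% and 6 platelet genes to 0.184% to 0.232%, with Siglech, Clec9a, Ncr1, Pf4 and Ppbp at 0 counts. The highest dendritic, NK and platelet genes were Zbtb46 at 9.90, Klrk1 at 10.3 and Itga2b at 7.90 CPM. In bulk RNA, fewer cells of a type and less RNA per cell cannot be told apart, and the levels are averages over all T cells.

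Genes that act on these regulators were all expressed. Of 18 upstream genes, 18 had a mean of 10 CPM or more and 13 of 100 CPM or more, with a median of 179 CPM, where 39.8% and 11.0% of the 23131 genes with a count reached those levels and the median was 2.89 CPM. Malt1, the paracaspase, led them at 381 ± 36.7 CPM. It was followed by Ywhae, encoding a 14-3-3 adaptor of the kind that binds phosphorylated ZFP36, at 309 ± 16.1 CPM, and by Upf1, the helicase that Regnase-1 works with, at 301 ± 17.4 CPM. The chi-square test called 11 of the 18 between libraries, where it called 42.8% of all genes tested and 67.9% of those in the CPM range of the 8 regulators. Of 12 other proteins that bind AU-rich or related elements, 9 reached 100 CPM, with a median of 275 CPM, and all 11 tested were called, beside the same 42.8% and 67.9%. Several of them lie above the CPM range of the regulators, so the 67.9% is not a matched share for them. Ybx1, Hnrnpab and Pcbp1, which encode abundant RNA-binding proteins, were at 779 ± 130, 585 ± 62.6 and 416 ± 83.7 CPM. Arid5a, known to oppose Regnase-1, was at 141 ± 11.0 CPM, a gene named here after its value was seen.

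The machinery that carries out decay was expressed throughout. All 16 deadenylation genes reached 10 CPM, with a median of 96.9 CPM, led by the poly(A)-binding gene Pabpc1 at 1696 ± 61.3 CPM, the CCR4-NOT scaffold Cnot1 at 406 ± 27.4 CPM and Pabpc4 at 193 ± 18.5 CPM. Of 18 genes of decapping and decay from the 5′ end, 17 reached 10 CPM, with a median of 56.1 CPM, and the exception, named after its value was seen, was Lsm5 at 2.55 ± 0.550 CPM. They were led by Eif4enif1 at 297 ± 17.7 CPM, the helicase gene Ddx6 at 285 ± 15.3 CPM and the scaffold gene Edc4 at 175 ± 6.27 CPM. All 17 exosome and Ski genes reached 10 CPM, with a median of 52.3 CPM. They were led by Exosc10, a nuclease subunit, at 181 ± 15.4 CPM and Skiv2l, the Ski helicase, at 158 ± 10.4 CPM. Dis3, another nuclease, followed at 112 ± 11.8 CPM. Between libraries 11 of 16, 12 of 18 and 12 of 17 were called, shares close to the 67.9% of genes in the CPM range of the regulators and above the 42.8% of all genes tested. Genes of these lists, from Lsm5 to Pabpc1, and of the upstream and target lists also lie outside that range. The 67.9% is therefore not a matched share for any of these lists. The 8 regulators had a median of 147 CPM.

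Reported targets spanned from absence to the highest level seen among these lists. Of 27, 15 had a mean of 10 CPM or more and 4 were below 1 CPM, with a median of 36.0 CPM, and 15 of the 24 tested were called between libraries, beside 42.8% of all genes tested and 67.9% in the CPM range of the regulators. Irf4, a transcription factor bound by Roquin, was at 2409 ± 212 CPM, the receptor gene Notch1 at 608 ± 20.4 CPM and the transferrin receptor gene Tfrc at 484 ± 66.1 CPM. Costimulatory receptors were high, with Tnfrsf4 (OX40) at 320 ± 37.1 CPM and Icos at 209 ± 20.9 CPM, as were the NF-kB-related genes Nfkbid at 171 ± 10.1, Nfkbiz at 122 ± 1.78 and Rel at 101 ± 10.5 CPM. Among cytokines, Tnf was at 72.5 ± 14.5, Ifng at 42.2 ± 5.71, Il2 at 39.7 ± 3.03 and Il17a at 5.83 ± 1.17 CPM. The other interleukins listed and Csf2 were low, with means from 0.315 CPM (Il12b) to 7.02 CPM (Csf2), both named after their values were seen. Per kilobase of exon, Tnf at 44.2 ± 8.86 CPM stood above Zfp36, at 24.4 ± 4.55 CPM, and the hairpin-bearing Nfkbid at 72.8 ± 4.32 CPM stood above Zc3h12a, at 17.3 ± 1.65 CPM. Cxcl1 had 0 counts in every library.

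**Figure D4:**
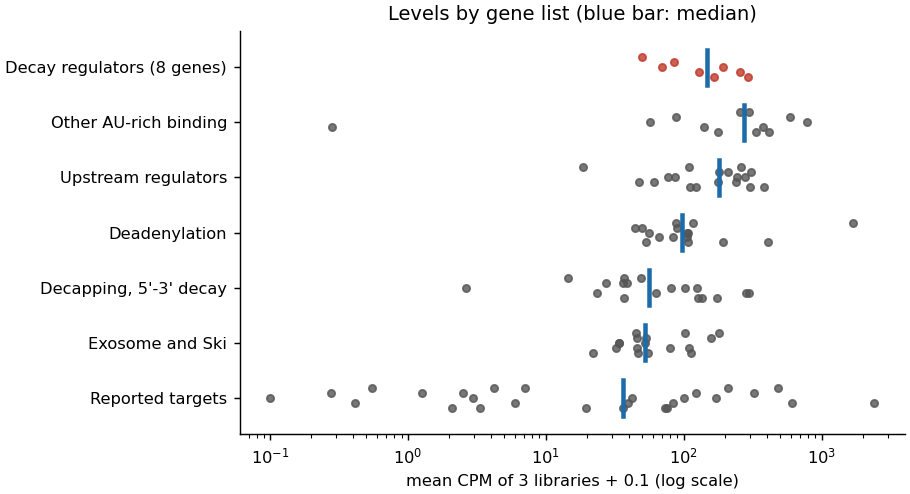
Mean CPM over 3 libraries plus 0.1 (log scale) for each gene of the 8 decay regulators (red) and of 6 lists of related genes (grey), with the blue bar at the list's median. The regulators lie between 49.9 and 290.5 CPM, and reported targets run from 0 to 2409 CPM.

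Among 95 genes of these lists with a mean of 10 CPM or more, the pattern over the 3 libraries nearest to each regulator was found by the Euclidean distance between log2 deviations from the gene's own mean. For Zfp36 it was Tnf, with 86.2, 74.0 and 57.2 CPM in replicates 1, 2 and 3 and a distance of 0.0461. Zc3h12a was nearest to Malt1, with 344, 383 and 417 CPM and a distance of 0.00482. Rc3h2 was nearest to Tfrc, Rc3h1 to Bcl10, Zc3h12d to Hnrnpab, Elavl1 to Ywhag, Zfp36l2 to Cnot2 and Zfp36l1 to Exosc4, at distances of 0.00447 to 0.0725. With 3 libraries that differ in RNA composition, such distances describe these libraries only.

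Some counts can be shared with other loci. The exons of Zfp36l1 share 1672 bases with the opposite-strand Gm26669, and a processed pseudogene, Zfp36l1-ps, matches its transcript at 94.7% over 903 bases. The exons of Elavl1 share 204 bases with opposite-strand exons of Ccl25, which had 28, 38 and 47 counts. Those of Zfp36 share 125 bases with the opposite-strand Gm44710 and those of Zfp36l2 share 105 with AC132455.1. Gm26669, Zfp36l1-ps and Gm44710 were not matched to a row, so their counts were not used here. Whether the counting used strand is not known, so Zfp36l1 is uncertain, and Elavl1, Zfp36 and Zfp36l2 are uncertain over these shorter stretches. Stretches of 118 to 174 bases of Zfp36 and of 148 to 187 bases of Zc3h12a resemble, at 90% identity or more, transcripts of 332 and 85 other genes found in the search.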

How the data were processed

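Counts per gene symbol were deposited by the authors as raw whole numbers, 1 column per library, per the file headers and the values. Reads were placed on mm10 (submitters' processing notes). The aligner, counter, annotation and filters were not given in the sources used. The libraries were made with an Ion Proton kit, per the labels' protocols.

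Counts were scaled with TMM factors from edgeR 4.0.16 in R 4.3.3 (0.962, 1.01 and 1.03) and given as CPM. Exon lengths, coordinates and 3′ UTR sequences came from GENCODE release M21 (GRCm38), which gave a length to 89.1% of the genes tested. The 3′ UTR was that of the transcript with the longest coding sequence. Differences between libraries were tested across all genes by a chi-square test (expected count per library of at least 5), with calls at an adjusted p of 0.05 after Benjamini-Hochberg correction. The test was checked on simulated data with counting error only, which does not cover the wider spread of these libraries. Alternatives were DESeq2 1.42.0 size factors, no scaling factor, other filters and thresholds, another length, and leaving out each library. The limit of 25%, the CPM range used beside it and the hairpin rule were set after the counts had been seen.

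Named genes were the 8 regulators, their relatives and Nufip2, the 3 most abundant of each list, 9 targets, and the gene nearest in pattern to each regulator, with exceptions said to be chosen later. Near copies were searched with blastn 2.17.0 at 90% identity, and the limit of 500 aligned bases was raised after repeat-like matches filled a first list. The members and lists were chosen with earlier results of these data known. Floors and the chi-square p-values cover counting error only, because PCR reads are not independent molecules.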

Additional observations from a re-analysis of the deposited data

How the results depend on the processing

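The count of 7 regulators called between libraries stayed at 7 or 8 with DESeq2 size factors, no scaling factor, library sizes without Rn18s-rs5 and Lars2, other count filters and an adjusted p of 0.01. With no scaling factor Zfp36l2 was also called, and replicate 1 became the lowest library for Zfp36l1 and Zfp36l2. With a gap of 25% required, an alternative chosen after seeing the data, 2 regulators and 4180 genes in all were called, since fewer genes meet both limits. Leaving out 1 library gave 3 to 6 regulators and 3555 to 6384 genes. With the longest transcript as the length, log2 ratios were 1.69 for Zfp36l1 to Zfp36, 0.87 for Zfp36l2 to Zfp36 and 0.60 for Rc3h1 to Rc3h2. With no length correction they were -0.58 for Zfp36l2 to Zfp36l1, -2.35 for Zc3h12a to Zc3h12d and 0.90 for Rc3h1 to Rc3h2. No ratio within a family changed sign with either length alternative. Scaling factors cancel in these ratios and their 3 library values shared a sign, so only the length could have reversed one. Between neighbours in rank, Elavl1 at 28.7 CPM per kilobase moved above Zc3h12a at 18.1 with the longest transcript. With DESeq2 size factors or no scaling factor, the mean CPM of each of the 8 genes moved by less than its SD. Means without 1 library were recomputed too, but with 3 libraries such a shift is always smaller than the SD. No paired analysis was possible because all libraries belong to 1 group. Depth does not limit the 8 genes, which had 573 counts or more in each library, but it does limit relatives near the floor of 3 counts.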
